A study of Mus musculus with 10 samples.

Results

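AP-1 is a family of dimeric transcription factors, and 10 of its genes were followed here: Fos, Fosb, Fosl1 and Fosl2, Jun, Junb and Jund, and the related basic leucine zipper genes Atf3, Batf3 and Maff. The genes were chosen by their known role and from earlier results of the same arrays, in which Fosl2 and Atf3 had been higher with EBIO in ES cells. Their EBIO differences are therefore a description. Whether a gene passed the threshold of the fit across all genes is stated, but that fit is no independent test of genes chosen in this way, and no p-value is given for them. They stand among 18193 genes with a named probe set. All 14 probe sets annotated to 1 of the 10 genes alone were read, and Fosl1, Fosl2, Jun and Jund had more than 1.

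The cells were mouse CGR8 embryonic stem (ES) cells of strain SV129, a single line. EBIO opens small- and intermediate-conductance calcium-activated potassium channels. ES cells exposed to 1 mM EBIO for 3 days (n = 3) were set against untreated ES cells (n = 3), with passages 25, 26 and 27 in both groups. Cells grown for 5 days in embryoid bodies and then given EBIO for 10 days (n = 2) were set against cells carried through the same 5 and 10 days without it (n = 2); no dose is given for the differentiated cells. Affymetrix arrays measured total RNA of the whole culture, so fewer cells of a type and less RNA per cell cannot be told apart.

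A Fos protein and a Jun protein pair through their leucine zippers and bind the short TRE element. Jun proteins can also pair with each other, whereas Fos proteins need a partner. Fos, Jun, Junb, Fosb and Atf3 are immediate early genes, transcribed soon after growth factors, stretch, calcium entry or stress, while Jund is made more steadily. Forced Jun expression hinders the reprogramming of mouse fibroblasts to pluripotency.

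Short stretches upstream of the start sites are shown for Fos, Jun, Atf3 and Maff, which carry CRE-type elements bound by ATF, CREB and Jun dimers, and for Fosl2, which had the largest difference in ES cells. The sequences are from RefSeq (GRCm38.p6), which held a promoter window for 9 of the 10 genes, Fosl1 being the other one. Each line gives the 100 bases before the start site, 5′ to 3′ on the gene's strand, and capitals mark matches to TGACGT or TGANNTCA on either strand.
Fos, chr12:85473790-85473889, plus strand: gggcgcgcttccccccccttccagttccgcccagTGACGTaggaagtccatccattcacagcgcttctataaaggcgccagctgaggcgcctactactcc
Fosl2, chr5:32136372-32136471, plus strand: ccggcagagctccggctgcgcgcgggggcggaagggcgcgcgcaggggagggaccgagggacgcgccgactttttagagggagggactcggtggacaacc
Jun, chr4:95052223-95052322, minus strand: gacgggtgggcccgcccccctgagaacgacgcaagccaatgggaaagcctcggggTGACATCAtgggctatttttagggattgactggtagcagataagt
Atf3, chr1:191183334-191183433, minus strand: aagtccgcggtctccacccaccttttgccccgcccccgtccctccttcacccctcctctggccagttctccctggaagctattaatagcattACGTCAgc
Maff, chr15:79347420-79347519, plus strand, the middle one of its annotated starts: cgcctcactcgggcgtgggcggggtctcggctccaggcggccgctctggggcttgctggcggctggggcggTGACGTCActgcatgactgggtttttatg

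Over the whole windows, from 250 bases before to 50 bases after the start, TGACGT lay in those of 3 of the 9 genes (Fos, Atf3 and Maff), and 7.51% of all 32851 mouse windows hold it. A gene is counted if any of its windows matched (11 windows, with several for Maff), whereas the percentages are per window. The longer TGANNTCA lay in windows of 3 genes as well (Jun, Jund and Maff), against 14.1% of all windows; the Maff element TGACGTCA counts under both. The Jun window held 2 matches, with first bases at -45 and 3 from the start site, and the first base of the Fos match lay at -66. TGANTCA, a looser pattern that includes the TRE and allows any middle base, was in none of the 9 genes' windows and in 7.81% of all windows. The CArG box, the element of serum response factor, was in none of the 9 genes' windows and in 1.63% of all. A missing match says only that these letters are not in this window.

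Values below are the authors' log2 RMA values, on which a difference of 1 is a 2-fold change. The ES and differentiated arrays had been normalized as separate sets: array medians lay between 4.52 and 4.62 in ES cells and between 5.59 and 5.68 in differentiated cells, so only differences within a stage are compared. In ES cells 8 of 8 pluripotency markers fell, and their summed linear level was 4141 to 4662 with EBIO and 31311 to 33714 without. Smooth muscle markers summed to 6674 to 7922 with EBIO against 419 to 701 without, with 4 of 6 tested higher and 1 lower. Of the epithelial markers 3 of 8 were higher and 3 lower (sums 8163 to 10968 with EBIO, 2994 to 4127 without). In ES cells 7 of 8 fibroblast markers and 5 of 8 macrophage markers lay under the array medians in both groups. So did 5 of 8 cardiomyocyte markers with EBIO and 4 without, and 3 of 8 endothelial markers with EBIO and 2 without. Of the endothelial markers 3 of 6 tested fell in ES cells and 0 rose (sums 352 to 398 with EBIO, 559 to 672 without), and of the cardiomyocyte markers 2 of 3 tested fell and 0 rose (127 to 158 with EBIO, 211 to 228 without). In differentiated cells 8 of 8 cardiomyocyte markers rose (88493 to 90067 with EBIO, 9203 to 10568 without), whereas 8 of 8 fibroblast markers (4010 to 4281 with EBIO, 59763 to 61919 without) and 8 of 8 macrophage markers (245 to 247 with EBIO, 16578 to 20559 without) fell. Endothelial markers fell in 7 of 7 tested and epithelial ones in 8 of 8 there; smooth muscle markers had 4 higher and 3 lower of 7. The 3′ minus 5′ difference of Actb, a sign of RNA integrity, was 0.08 to 0.20 with EBIO and 0.33 to 0.50 without in ES cells, and 0.45 to 0.48 with EBIO and 0.40 to 0.46 without in differentiated cells. For Gapdh the ES groups overlapped, at 0.01 to 0.04 with EBIO and -0.08 to 0.06 without. In differentiated cells it was 0.02 to 0.03 with EBIO and 0.02 to 0.04 without. The part of the marker and Actb differences in the results below was not tested.

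With EBIO in ES cells, 7 of the 10 genes rose and 0 fell: Fos, Fosl2, Jun, Junb, Jund, Atf3 and Maff. A gene is called higher or lower where limma, fitted across all genes, gave an adjusted p under 0.05. Among all 12096 genes tested in ES cells 23.5% were called higher and 21.2% lower; the members were chosen with this contrast known, so nothing is read from the comparison. At an unadjusted p under 0.05 the members' counts were also 7 and 0. Batf3 was tested and not called, and Fosb and Fosl1 were too dim to be tested. Fosl2 was bright enough for the test only through its treated arrays. With no filter on dim probe sets the members' counts were again 7 and 0. Over all 10 genes the median difference was 1.33, against -0.04 over all genes tested.

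**Figure D1:**
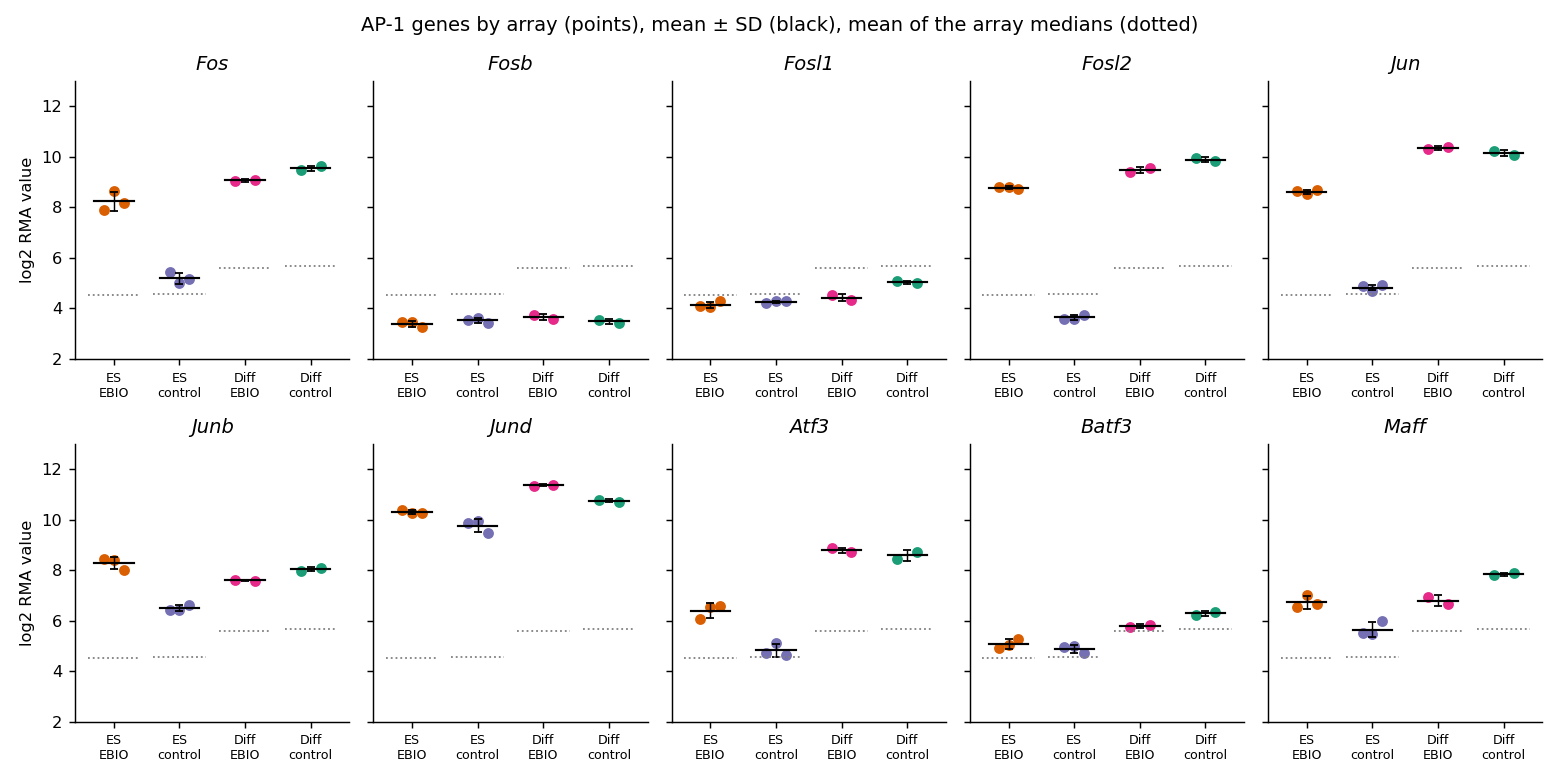
Log2 RMA value (vertical axis) of the 10 AP-1 genes on each array, by group, with the mean and SD in black and the mean array median dotted. Fosl2 lies between 8.71 and 8.82 in EBIO-treated ES cells and between 3.59 and 3.75 in untreated ones, while Fosb and Fosl1 stay under the array medians in all 4 groups.

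Fosl2 encodes Fra-2, a Fos family member without the strong activation domain of Fos. Its brighter probe set measured 8.80, 8.82 and 8.71 in EBIO-treated ES cells, against 3.59, 3.59 and 3.75 in untreated ES cells. All 3 treated arrays were far above all 3 untreated ones, and the difference of 5.14 (8.78 ± 0.06 against 3.64 ± 0.10, SD, n = 3 each) is 35.1-fold. The untreated level lay under the array medians, where RMA compresses values, so the fold of this probe set may be understated. The dimmer Fosl2 probe set measured 6.03, 6.93 and 6.18 with EBIO and 5.41, 5.36 and 5.48 without. It too was higher on every treated array, but by 0.96, or 1.95-fold, so that the size of the Fosl2 difference depends on the probe set; the mean of both probe sets differed by 3.05.

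Fos, the founding member of its family, measured 7.91, 8.63 and 8.16 with EBIO, against 5.43, 4.99 and 5.16 in untreated ES cells. The groups did not overlap, and the difference of 3.04 (8.23 ± 0.37 against 5.19 ± 0.22, n = 3 each) is 8.22-fold. By passage the Fos difference was 2.48, 3.64 and 3.00, the most uneven among the large ones. The other Fos genes showed no such difference. Fosb measured 3.48, 3.45 and 3.26 with EBIO and 3.56, 3.63 and 3.43 without, and Fosl1, the gene of Fra-1, measured 4.09, 4.06 and 4.28 with EBIO and 4.21, 4.30 and 4.28 without. Both lay under the median of every array, and their groups overlapped.

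Jun, which encodes the Jun protein with the strongest transactivation of its family, measured 8.64, 8.53 and 8.68 in EBIO-treated ES cells and 4.88, 4.70 and 4.91 in untreated ES cells. The difference of 3.79 (8.62 ± 0.08 against 4.83 ± 0.12, n = 3 each) is 13.8-fold, and it was nearly the same in every passage (3.76, 3.84 and 3.76). The other Jun probe set, at 6.28, 6.27 and 6.73 with EBIO and 4.41, 4.24 and 4.56 without, differed by 2.02, again with no overlap. The untreated level of Jun was close to the array medians, so both differences may be understated.

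Junb, whose protein can restrain Jun activity, measured 8.44, 8.41 and 8.02 with EBIO against 6.43, 6.41 and 6.62 without. It was higher on every treated array, by 1.81 or 3.50-fold (8.29 ± 0.23 against 6.49 ± 0.11, n = 3 each). Jund, the most constant Jun gene, measured 10.38, 10.26 and 10.25 with EBIO and 9.87, 9.95 and 9.45 without. Its rise of 0.54 (10.30 ± 0.07 against 9.76 ± 0.27, n = 3 each) was small; without the passage-25 EBIO array it was 0.50 and not called. The dimmer Jund probe set ran the other way, at 4.39, 4.62 and 4.31 with EBIO and 4.94, 4.69 and 4.73 without (-0.35). With the mean of the Jund probe sets the difference was 0.10 and not called.

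Atf3, a stress-induced gene whose protein represses as a homodimer and pairs with Jun, measured 6.07, 6.53 and 6.59 with EBIO and 4.72, 5.12 and 4.65 without. The groups did not overlap, and the rise of 1.57 (6.40 ± 0.28 against 4.83 ± 0.26, n = 3 each) is 2.97-fold. Maff, a small Maf protein gene that lacks an activation domain, measured 6.52, 7.01 and 6.65 with EBIO and 5.51, 5.46 and 5.97 without, a rise of 1.08 (6.72 ± 0.26 against 5.65 ± 0.28, n = 3 each). Batf3, needed for a class of dendritic cells in mice, measured 4.92, 5.03 and 5.28 with EBIO and 4.94, 5.00 and 4.70 without. Its groups overlapped, and its difference of 0.20 came from passage 27 (0.58), with -0.02 and 0.04 in the other passages.

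**Figure D2:**
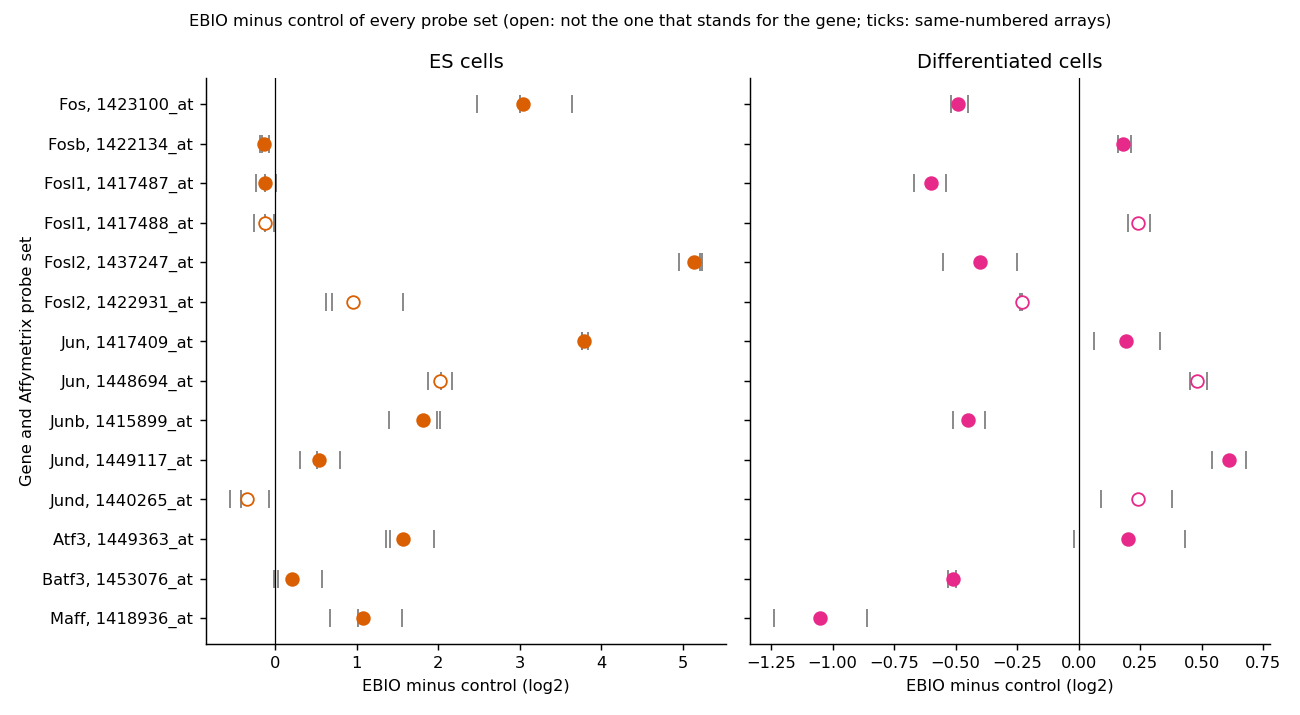
EBIO minus control on the log2 scale (horizontal axis, with a wider range in the ES panel) for all 14 probe sets in ES cells (left) and differentiated cells (right); circles are group differences, filled for the probe set that stands for the gene, and ticks are differences between same-numbered arrays. The ES panel reaches 5.14 for Fosl2, whereas the differentiated panel runs from -1.05 (Maff) to 0.61 (Jund).

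In differentiated cells the AP-1 genes differed in both directions with EBIO. Of the 10 genes 5 fell (Fos, Fosl2, Junb, Batf3 and Maff) and 1 rose (Jund); Jun and Atf3 were tested and not called, and Fosb and Fosl1 were again too dim to test. Of all 12330 genes tested at this stage 32.6% were called lower and 33.3% higher, and here too the members were chosen with the contrast known. The median difference over all 10 genes was -0.43, against 0.02 over all genes tested. The residual spread rests on 2 degrees of freedom. With all 4 groups in 1 fit, 2972 of the 12330 genes were called lower and 2624 higher. As given above, fibroblast and macrophage markers fell in these cells and cardiomyocyte markers rose.

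The largest fall was that of Maff, which measured 6.94 and 6.64 with EBIO against 7.80 and 7.88 without. Both treated arrays lay under both untreated ones, and the change of -1.05 (6.79 ± 0.21 against 7.84 ± 0.06, n = 2 each) is 2.07-fold lower. Batf3 measured 5.73 and 5.83 with EBIO and 6.23 and 6.36 without (-0.51), again with no overlap. Its treated level was just above the array medians of 5.62 and 5.59.

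Within the Fos family, Fos measured 9.03 and 9.10 with EBIO and 9.48 and 9.62 without, a change of -0.49 (9.06 ± 0.05 against 9.55 ± 0.10, n = 2 each). The groups were separate, and with all 4 groups in 1 fit Fos was not called. Fosl2 measured 9.41 and 9.57 with EBIO and 9.96 and 9.82 without, a change of -0.40. This call was lost without EBIO array 1 (-0.32) and without control array 1 (-0.33). The dimmer Fosl2 probe set was lower as well, at 6.19 and 6.03 with EBIO against 6.43 and 6.26 without.

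The Fosl1 probe sets disagreed in differentiated cells. The brighter one measured 4.53 and 4.33 with EBIO and 5.07 and 5.00 without, while the other measured 4.26 and 4.37 with EBIO and 4.07 and 4.08 without. All of these values lay under the array medians, and so did those of Fosb, at 3.76 and 3.59 with EBIO and 3.56 and 3.43 without. No level is therefore drawn for either gene beyond that it was dim.

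The Jun genes went different ways. Junb measured 7.60 and 7.58 with EBIO and 7.98 and 8.09 without, a fall of 0.45 on the log2 scale. Jund measured 11.33 and 11.38 with EBIO against 10.79 and 10.70 without, a rise of 0.61 (11.36 ± 0.03 against 10.75 ± 0.07, n = 2 each), or 1.53-fold. In both genes the treated and untreated arrays were apart. The dimmer Jund probe set, under the array medians, was also higher with EBIO here (4.39 and 4.32 against 4.01 and 4.23 without). Jun measured 10.30 and 10.40 with EBIO and 10.24 and 10.07 without, a difference of 0.19 that was not called, although with the mean of its probe sets (0.34) it was. The second Jun probe set was higher on both treated arrays, at 9.84 and 9.77 against 9.32 and 9.32. Atf3 measured 8.86 and 8.71 with EBIO and 8.43 and 8.73 without, and its groups overlapped.

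Because the stages were normalized apart, levels across the 4 groups are given as the percentile of the same probe set among all rows of its array. Fosl2 was at the 90.8 to 91.4 percentile in EBIO-treated ES cells and at 16.5 to 25.1 in untreated ES cells; it was at 86.5 to 87.4 in EBIO-treated differentiated cells and at 89.7 to 90.5 in untreated differentiated cells. By this brighter probe set the untreated ES cells stood apart from the other groups. The dimmer Fosl2 probe set had another order. In ES cells it was at 71.5 to 78.3 with EBIO and 64.5 to 65.7 without. In differentiated cells it was at 55.6 to 57.3 with EBIO and 57.0 to 58.9 without. Jun, like the brighter Fosl2 probe set, had its lowest percentiles in untreated ES cells. It was at 89.7 to 90.6 in EBIO-treated ES cells and 53.3 to 57.4 in untreated ES cells. In differentiated cells it was at 92.5 to 92.8 with EBIO and 91.3 to 92.1 without. The second Jun probe set was at 73.2 to 76.4 in treated and 41.4 to 50.2 in untreated ES cells. In differentiated cells this second one was at 88.9 to 89.6 with EBIO and 85.9 to 86.1 without. Fos was at 85.7 to 90.3 and 58.9 to 65.3 in treated and untreated ES cells, and at 83.5 to 83.7 and 87.1 to 88.3 in treated and untreated differentiated cells; treated ES cells and untreated differentiated cells overlap in this order.

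Junb and Maff had their highest percentile in EBIO-treated ES cells. Junb was at 86.3 to 89.3 there and at 74.8 to 76.4 in untreated ES cells, and at 70.1 to 70.5 with EBIO and 73.5 to 74.8 without in differentiated cells. Maff was at 75.3 to 78.8 in treated and 65.8 to 70.8 in untreated ES cells, and at 61.9 to 64.6 with EBIO and 71.7 to 72.7 without in differentiated cells. Atf3, in contrast, was lower in EBIO-treated ES cells (71.7 to 75.3) than in treated (80.3 to 82.1) or untreated (77.9 to 80.9) differentiated cells, and lowest in untreated ES cells (52.2 to 61.1). Jund stayed between 94.4 and 97.1 in every group.

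**Figure D3:**
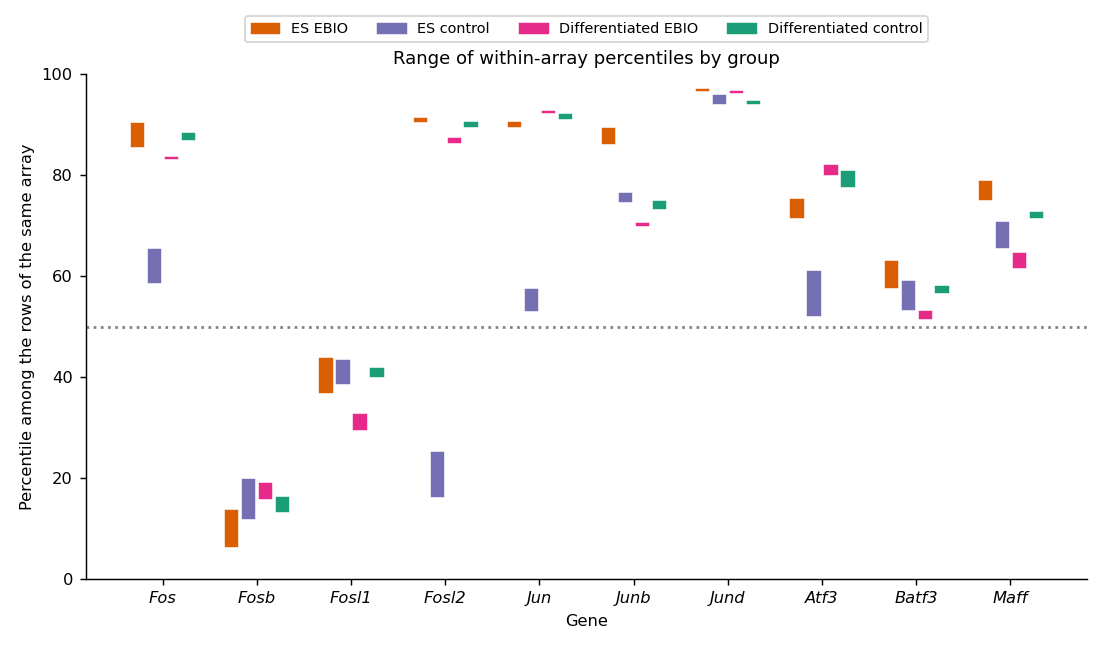
Percentile of each AP-1 gene's probe set among all rows of the same array (vertical axis), as the range over the arrays of each group, for the 10 genes (horizontal axis); the dotted line is the array median. By its brighter probe set, Fosl2 spans 16.5 to 25.1 in untreated ES cells and lies at 86.5 or above in the other 3 groups. Fosb and Fosl1 lie below the median throughout.

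The genes closest to Fosl2 over the 10 arrays, after the mean of the untreated arrays of each stage was taken off, were Anxa2 (distance 0.80 on the log2 scale), Kitl (0.96) and Lhfp (0.98). Anxa2 differed by 5.05 in ES cells and by -0.52 in differentiated cells. Those closest to Jun were Pea15a (0.49), Phlda1 (0.63) and Gpc4 (0.74), and those closest to Fos were Tpm4 (0.56), Cdkn2b (0.65) and Igf2 (0.69). The search covered 13504 genes, and the distance carries no test.

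Genes around AP-1 were read from 4 lists, which were fixed with earlier results of these data known. Their named genes were picked by the size of their change, so the p-values printed for them are descriptive. The first held 23 other basic leucine zipper genes whose proteins pair or compete with AP-1, 17 of them bright enough to test in ES cells. There 3 rose and 0 fell (4 and 1 at an unadjusted p under 0.05, limma), against 23.5% higher and 21.2% lower of all genes tested, and the median was 0.11 against -0.04 over all genes. Bach2, a repressor that pairs with small Maf proteins, measured 6.64 ± 0.16 with EBIO and 4.43 ± 0.16 without (SD, n = 3 each, limma adjusted p = 7.4e-06). Bach1 rose by 0.64 and Mafk, a close relative of Maff, by 0.54. In differentiated cells 4 of 18 rose and 7 fell, against 33.3% higher and 32.6% lower of all genes tested, with a median of 0.01. Maf fell to 9.94 ± 0.02 with EBIO, against 12.20 ± 0.04 without (n = 2 each, limma adjusted p = 5.3e-06), and Cebpb and Cebpd, C/EBP factors of macrophages and fat cells among others, fell by 2.17 and 1.72. Atf7 (0.77), Mafk (0.61) and Nfe2l1 (0.51) rose there.

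The second list held 26 MAP kinases, their phosphatases and scaffolds, which act upstream of AP-1. In ES cells 15 of 21 tested rose and 0 fell (15 and 0 at an unadjusted p under 0.05, limma), against 23.5% higher and 21.2% lower of all genes tested, with a median of 0.69. Dusp5, a nuclear phosphatase of ERK, measured 8.83 ± 0.32 with EBIO and 5.73 ± 0.35 without (n = 3 each, 8.56-fold, limma adjusted p = 1.2e-05). Map3k5, the stress kinase ASK1, rose by 2.28, and Dusp10, a phosphatase of JNK and p38, by 1.49. In differentiated cells 9 of 21 rose and 6 fell, against 33.3% higher and 32.6% lower of all genes tested, with a median of 0.15. Rps6ka5 (1.70), Dusp10 (1.53) and the JNK scaffold gene Mapk8ip3 (1.19) rose, while Map3k1 (-1.27), Mapk7 (-0.58) and Dusp6 (-0.47) fell.

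The third list held 27 other immediate early and serum response genes. In ES cells 13 of 26 tested rose and 4 fell, against 23.5% higher and 21.2% lower of all genes tested, with a median of 0.70. Ccn1 (5.01), Egr1 (3.98) and Ccn2 (3.77) rose most, and Egr1, a zinc finger immediate early gene, measured 10.08 ± 0.16 with EBIO and 6.09 ± 0.85 without (n = 3 each, limma adjusted p = 4.5e-05). Klf4 (-1.79), which is also a pluripotency factor, Arc (-0.95) and Klf10 (-0.75) fell. In differentiated cells 12 of 26 rose and 7 fell, against 33.3% higher and 32.6% lower of all genes tested, with a median of 0.17. Srf, the serum response factor gene, measured 10.45 ± 0.09 with EBIO and 8.58 ± 0.01 without (n = 2 each, 3.65-fold, limma adjusted p = 1.3e-05). Egr1 rose by 1.16 and Egr2 by 1.21, so these immediate early genes were higher in cultures in which Fos was lower. Elk3 (-1.82), Btg2 (-1.03) and Myc (-0.80) fell.

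The last list held 26 genes known as AP-1 targets in other cells. In ES cells 8 of 15 tested rose and 3 fell, against 23.5% higher and 21.2% lower of all genes tested, with a median of 0.45. Krt18, a keratin of simple epithelia, rose by 4.08, Vim by 3.18 and Plaur, the urokinase receptor gene, by 2.30 (8.95 ± 0.15 against 6.65 ± 0.31, n = 3 each, limma adjusted p = 1.8e-05). Ccnd1, the cyclin D1 gene, fell by 3.28, and the metallothionein genes Mt1 and Mt2 fell by 1.25 and 1.06. Of the 24 targets with a probe set, 9 lay under the array medians in every treated ES array.

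In differentiated cells 15 of 17 tested targets fell and 1 rose, against 33.3% higher and 32.6% lower of all genes tested, with a median of -1.32. Ccl2, a chemokine gene, measured 7.46 ± 0.07 with EBIO and 11.63 ± 0.24 without (n = 2 each, limma adjusted p = 4.7e-06). Timp1, an inhibitor of matrix proteases, fell by 3.70 and Ccnd1 by 3.51, while Hbegf, the gene of a ligand of the EGF receptor, rose by 0.96. Fibroblasts and macrophages express several of these genes, and the fibroblast and macrophage markers given above fell in the same cells; their part in the list's values was not tested.

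**Figure D4:**
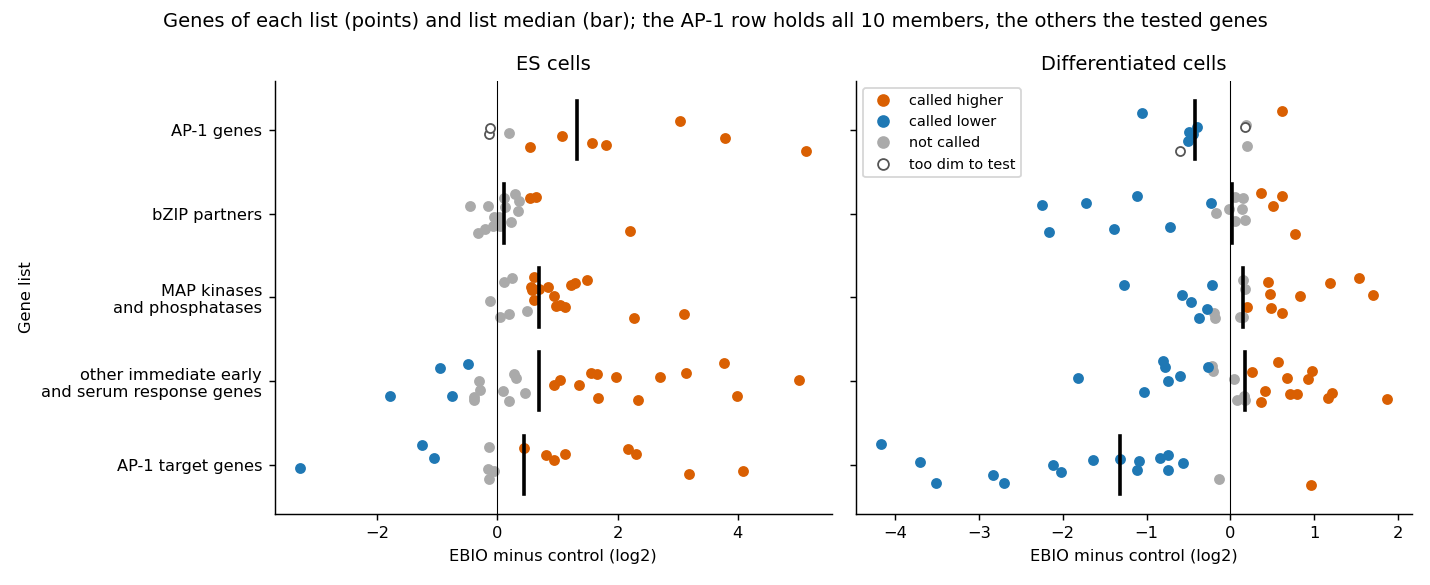
EBIO minus control on the log2 scale (horizontal axis, separate ranges) for the 10 AP-1 genes and the tested genes of the 4 surrounding lists (vertical axis) in ES cells (left) and differentiated cells (right); colours give the call and bars the list medians. In ES cells the medians run from 0.11 to 1.33, and in differentiated cells the AP-1 targets have the lowest one, -1.32.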

How the data were processed

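RNA from 10 cultures was measured on Affymetrix arrays. The deposited values are log2 expression values that the authors made with RMA, per the submitters' processing notes; a label names BioConductor, and versions are not given in the sources used here. RMA compresses the low end, so differences of dim probe sets are understated. The number of arrays limits the precision. Of 45101 rows, 64 are Affymetrix controls; outside these, 34945 have 1 gene symbol, and of all rows 932 have several and 9211 none. RefSeq gave current symbols for 34741. Each gene was read from its brightest probe set by the mean of the 10 arrays.

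A gene was tested where it exceeded the array median on as many arrays of the stage as its smaller group held. Each stage was fitted on its own arrays with limma 3.58.1 (lmFit and eBayes; R 4.3.3), with Benjamini-Hochberg adjustment over all genes tested, a threshold of 0.05 and no block; the code was tested on simulated data. Fold changes and SDs are on the log2 scale unless called a fold. Samples of a group are independent experiments, per the series' design text.

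Same-numbered ES arrays share a passage. After subtraction of group means they correlated at 0.33, 0.23 and 0.62. Differently numbered ES arrays correlated at -0.51 to 0.24, which overlaps these values, so the pairing rests on the shared passage. Differentiated arrays share only a number (-0.13 for both pairs).

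The members, lists and tests were chosen with earlier results of these data known. From each surrounding list, the 3 called genes with the largest rise and the 3 with the largest fall were named per stage; Euclidean distance chose the genes closest to Fosl2, Jun and Fos. Alternatives were the filter, the probe sets of a gene, all groups in 1 fit, a block, an intensity trend, centring and leaving out each array.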

Additional observations from a re-analysis of the deposited data

Results flagged for a closer look

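Fos, Fosl2, Junb and Maff were higher on every EBIO array than on every control array in ES cells and lower on every one in differentiated cells, and are listed for that reason. The Fos difference, EBIO minus control on the log2 scale, was 3.04 in ES cells and -0.49 in differentiated cells. That of Fosl2 was 5.14 in ES cells and -0.40 in differentiated cells. Junb differed by 1.81 in ES cells and by -0.45 in differentiated cells, and Maff by 1.08 and -1.05. The difference between the stages was not tested. How many of all genes meet the same rule was not counted, so the listing does not show that the pattern is unusual. Time with EBIO (3 days and 10 days), the starting cells and the normalized set of arrays differed together between the stages and cannot be told apart.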

How the results depend on the processing

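In ES cells 5413 genes and 7 members were called. Leaving out each array gave 4426 to 5889 genes and 6 to 7 members, and the replicate block gave 6474 genes with 7 members. In differentiated cells 8132 genes and 6 members were called. Leaving out each array gave 6967 to 7077 genes and 5 to 7 members, and the replicate block gave 7493 genes with 6 members; the crossed pairing, added after seeing the data, gave 8115 genes and 6 members. With every probe set tested on its own, 9154 probe sets were called in ES cells and 14459 in differentiated cells, since more rows entered. A filter at the 75th percentile left 3 called members of 5 tested in differentiated cells, and 5672 genes called of 7647 tested. With all 4 groups in 1 fit, 5596 genes and 5 members were called in differentiated cells. In ES cells that fit called 6265 genes and 7 members. No called member changed sign under these settings. The fit of every probe set read each member from its brightest one, so it could show no such change. The dimmer Jund probe set differed by -0.35 in ES cells, against the called rise of 0.54. In ES cells Jund was not called with the mean of its probe sets or without EBIO array 1. In differentiated cells Fos was not called with all 4 groups in 1 fit, nor Fosl2 without EBIO array 1 or control array 1; Jun was called with the mean of its probe sets and with arrays centred on their medians, Atf3 without control array 2 (0.35) and Fosl1, as lower, without a filter (-0.60). With 2 arrays a group, an array left out leaves a lone sample assumed to vary like the others.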
